A study of Homo sapiens with 6 samples.

Results

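The 7 neighbouring pseudogenes described here lie near the start of chromosome 1 and are nuclear copies of mitochondrial genes: MTND1P23, MTND2P28, MTCO1P12, MTCO2P12, MTATP8P1, MTATP6P1 and MTCO3P12. They were chosen by symbol, as the 7 listed pseudogenes among 220 genes for which counts of all 6 RNA-Seq libraries were analysed. The libraries were made from poly(A)-selected RNA of U2OS, a human cell line from an osteosarcoma that is labelled WT in genotype throughout, with 2 libraries in each of 3 groups. The control group received no treatment, the second group was given adriamycin (1.5 μg/ml) and the third etoposide (100 μM, spelled Etopside in the labels), each during 4 h. Adriamycin is a DNA intercalator and, like etoposide, a poison of topoisomerase II.

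Mitochondria carry a small circular genome that encodes 13 proteins of the respiratory chain and of ATP synthase, together with the ribosomal and transfer RNAs needed to translate them. Pieces of this genome have been copied into the nuclear chromosomes over evolutionary time, and these copies are called nuclear mitochondrial segments. Their genes are pseudogenes, because the mitochondrial genetic code differs from the nuclear code and the copies accumulate mutations. A recent copy is so similar to the mitochondrial genome that a short sequencing read of mitochondrial RNA can be placed on either, so counts at such a pseudogene are read counts assigned to it and not by themselves a measure of its transcription.

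The 7 pseudogenes lie on the plus strand of chromosome 1 in GRCh38 and are annotated as unprocessed pseudogenes. MTND1P23 is at chr1:629062-629433, MTND2P28 at chr1:629640-630683, MTCO1P12 at chr1:631074-632616 and MTCO2P12 at chr1:632757-633438. They are followed by MTATP8P1 at chr1:633535-633741, MTATP6P1 at chr1:633696-634376 and MTCO3P12 at chr1:634376-634922. Their order is that of the parent genes on the mitochondrial genome. MT-ND1 and MT-ND2 encode subunits of complex I, which takes electrons from NADH. MT-CO1, MT-CO2 and MT-CO3 encode the catalytic core of complex IV, which passes electrons to oxygen, and MT-ATP8 and MT-ATP6 encode subunits of the membrane part of ATP synthase. As in the mitochondrial genome, MTATP8P1 and MTATP6P1 overlap, here by 46 bases, and MTATP6P1 and MTCO3P12 share 1 base.

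The whole block aligned as 1 piece. The segment chr1:629081-634924 of the reference matched positions 3911 to 9755 of the mitochondrial genome, which are 35.3% of its 16569 bases, with 83 differing bases in 5843 aligned pairs (98.6% identity) and 2 gaps. MTND1P23 has 38.9% of the length of MT-ND1 and matched its 3′ part, and MTCO3P12 has 69.8% of the length of MT-CO3. MTND1P23 starts at chr1:629062, before the match at chr1:629081, and its identity below covers the matched part only. The other 5 pseudogenes are about as long as their parents. Identity to the parent gene was 99.1% for MTND1P23 with 3 differing bases, 98.4% for MTND2P28 with 17, 98.7% for MTCO1P12 with 20, 98.2% for MTCO2P12 with 12, 97.6% for MTATP8P1 with 5, 98.5% for MTATP6P1 with 10 and 98.2% for MTCO3P12 with 10. Nearly all differences were transitions, an exchange of A with G or of C with T: 18 of 20 in MTCO1P12, 8 of 10 in MTATP6P1, 9 of 10 in MTCO3P12, and every difference in the other 4.

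The next sequences show the bases that separate a pseudogene from its parent. For each of 4 pseudogenes the 150 bases with the most differences are printed, since 150 bases is the length of a sequencing read in this study, above the aligned stretch of the mitochondrial gene. MTND2P28 and MTATP6P1 are shown because they had at least 2950 counts in every library, and MTCO2P12 and MTCO3P12 because they had at most 4. All are from GRCh38, plus strand, 5′ to 3′, and capitals mark the bases at which the pair differs. The first pair is chr1:630012-630161 in MTND2P28 and chrM:4842-4991 in MT-ND2, which differ at 6 bases.
MTND2P28: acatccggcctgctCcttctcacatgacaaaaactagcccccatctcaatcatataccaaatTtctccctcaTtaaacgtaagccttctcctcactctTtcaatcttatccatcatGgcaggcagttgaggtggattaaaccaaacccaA
MT-ND2: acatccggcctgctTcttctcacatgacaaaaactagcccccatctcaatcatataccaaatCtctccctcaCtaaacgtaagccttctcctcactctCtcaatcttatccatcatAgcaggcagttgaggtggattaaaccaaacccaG
The second pair is chr1:633738-633887 in MTATP6P1 and chrM:8569-8718 in MT-ATP6, which differ at 4 bases.
MTATP6P1: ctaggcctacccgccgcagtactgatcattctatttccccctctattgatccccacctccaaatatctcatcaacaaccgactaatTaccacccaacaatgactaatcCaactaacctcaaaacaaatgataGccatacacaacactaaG
MT-ATP6: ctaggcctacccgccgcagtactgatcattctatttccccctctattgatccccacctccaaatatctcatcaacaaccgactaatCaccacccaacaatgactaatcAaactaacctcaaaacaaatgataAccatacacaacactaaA
The third pair is chr1:633189-633338 in MTCO2P12 and chrM:8018-8167 in MT-CO2, which differ at 5 bases.
MTCO2P12: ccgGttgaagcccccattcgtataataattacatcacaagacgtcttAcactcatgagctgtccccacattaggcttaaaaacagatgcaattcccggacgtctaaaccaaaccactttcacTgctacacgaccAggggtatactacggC
MT-CO2: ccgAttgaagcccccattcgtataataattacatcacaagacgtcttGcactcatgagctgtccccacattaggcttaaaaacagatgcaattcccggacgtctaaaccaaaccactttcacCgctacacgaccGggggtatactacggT
The fourth pair is chr1:634568-634717 in MTCO3P12 and chrM:9399-9548 in MT-CO3, which differ at 6 bases.
MTCO3P12: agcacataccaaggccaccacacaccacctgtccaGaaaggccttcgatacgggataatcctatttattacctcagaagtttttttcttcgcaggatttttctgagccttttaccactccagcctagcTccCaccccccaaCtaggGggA
MT-CO3: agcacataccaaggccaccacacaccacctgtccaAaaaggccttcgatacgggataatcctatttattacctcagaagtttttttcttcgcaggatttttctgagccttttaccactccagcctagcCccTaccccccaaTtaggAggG

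A substitution is written below as the mitochondrial reference base, its position counted from 1 at the start of the mitochondrial reference sequence, and the base of the pseudogene. In MTND2P28 the first difference from MT-ND2 is T4736C, 267 bases into the pseudogene, and the bases before it form an identical run of 266. A4769G lies in MTND2P28 as well, and A8860G lies in MTATP6P1. As background, the mitochondrial reference sequence was read from 1 human lineage and other lineages differ from it at some positions. Which bases the counted reads carried was not tested, since the files hold counts per gene and no reads.

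In windows of 150 bases moved along each pseudogene in steps of 1 base, 352 of 4033 (8.73%) were found without any difference on the mitochondrial genome. They were 15.6% of the windows of MTND2P28, 14.5% of those of MTCO1P12 and 4.48% of those of MTND1P23. The windows of MTND1P23 include those over its first bases, which lie before the match to the mitochondrial genome. In MTCO2P12, MTATP8P1, MTATP6P1 and MTCO3P12 no window of this length was free of differences from the reference sequence. Other mitochondrial lineages were not compared. The longest run identical to the parent was 141 bases in MTATP6P1, 124 in MTCO3P12, 108 in MTCO2P12 and 62 in MTATP8P1, against 266 in MTND2P28, 245 in MTCO1P12 and 158 in MTND1P23.

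The counts lay in 2 ranges far apart from each other. For MTND2P28 the control libraries gave 4839 and 3912 counts, those with etoposide 4612 and 3710 and those with adriamycin 3479 and 3116. MTATP6P1 had 3942 and 2950 counts in control, 5432 and 3436 with etoposide and 4296 and 3692 with adriamycin. MTCO1P12 was lower, at 593 and 391 in control, 598 and 395 with etoposide and 663 and 418 with adriamycin. These are raw counts of libraries that differ in size, and in every group replicate 2 had fewer than replicate 1.

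The other 4 pseudogenes were at or near 0 in all 6 libraries. MTND1P23 had 4 and 3 counts in control, 2 and 1 with etoposide and 3 and 2 with adriamycin. MTCO3P12 had 4 in each control library, 2 in each etoposide library and 3 and 2 with adriamycin. MTCO2P12 had 1 count in control replicate 1, 2 in etoposide replicate 1 and 0 in the other 4 libraries, and MTATP8P1 had 0 in all 6. A count of 0 allows a share of up to 0.00323% of the counts of the 220 genes in the largest library and 0.00505% in the smallest, taking 3 counts as the limit, which covers counting error only. MTCO3P12 begins at the last base of MTATP6P1.

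**Figure D1:**
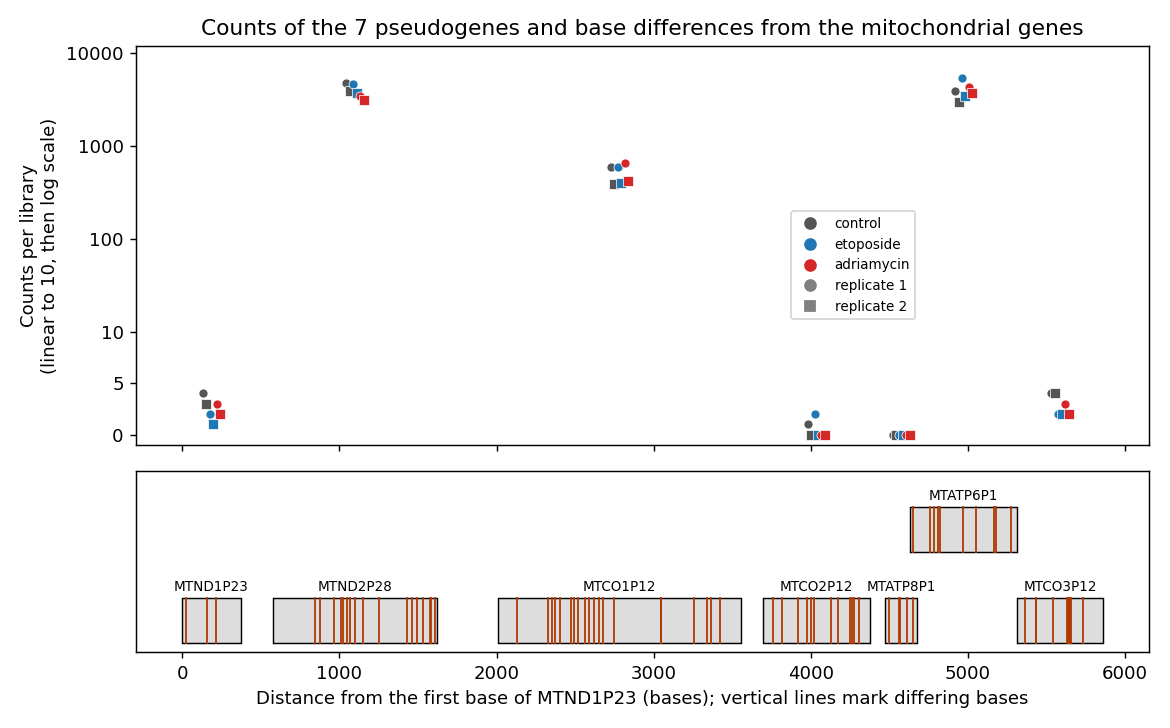
The upper panel plots the counts of each pseudogene in each of the 6 libraries (y axis, counts per library, linear up to 10 and logarithmic above) at its place in the block (x axis, bases from the start of MTND1P23), and the lower panel draws the pseudogenes to scale with a vertical line at each base that differs from the mitochondrial gene. MTND2P28 and MTATP6P1 lie between 2950 and 5432 counts, MTCO1P12 between 391 and 663, and the other 4 between 0 and 4, while differing bases occur along all 7.

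The order of the counts was not the order of the sequence measures. MTND1P23 has the highest identity of the 7 and had 15 counts in all. MTATP6P1, MTCO2P12, MTCO3P12 and MTATP8P1 have no 150-base window in common with the mitochondrial reference sequence. MTATP6P1 had 23748 counts where the other 3 had between 0 and 17 in total. These measures depend on the reference. In MTATP6P1 the differences next to A8860G are A8718G and C8943T. A mitochondrial genome with G at position 8860 would share a longer run with MTATP6P1 than the reference does. Which bases the mitochondrial genome of these cells carries was not tested. The number of differences per 100 aligned bases was 1.47 in MTATP6P1 and 1.63 in MTND2P28, against 1.76 in MTCO2P12, 1.83 in MTCO3P12 and 0.852 in MTND1P23.

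All 7 lie within the span of a longer gene on the minus strand, ENSG00000230021, a transcribed processed pseudogene at chr1:586071-827796. Its exons overlap MTCO1P12 by 74 bases and MTCO2P12 by 86 bases and none of the other 5. It had 93 counts over the 6 libraries. A miRNA gene, ENSG00000278791, lies inside MTCO1P12 on the minus strand and had 0 counts in every library. The strand setting of the counting is not given in the sources used here, so reads from the 2 strands cannot be told apart.

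The 7 pseudogenes held a large share of the counts of the shared genes. The share was 10.5% (Wilson 95% interval 10.3 to 10.7) and 11.4% (11.1 to 11.6) in the control libraries, 11.5% (11.3 to 11.7) and 12.3% (12.0 to 12.6) with etoposide and 10.6% (10.4 to 10.8) and 12.2% (11.9 to 12.4) with adriamycin. Both etoposide libraries lay above both control libraries, the adriamycin libraries overlapped with each of the other groups, and in each group replicate 2 had the higher share. The separation of etoposide from control depended on the denominator: without AGRN, etoposide replicate 1 was at 14.5% and control replicate 2 at 14.9%. The intervals cover counting error only. MTND2P28 and MTATP6P1 made up nearly all of it, and the 4 low pseudogenes together were between 0.0398% and 0.0964% of the counts of the 7.

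Counts in the shared list summed to between 59357 and 92794 per library. These sums are not library depths, because the control and adriamycin libraries were analysed over 220 to 292 genes at the start of chromosome 1 and the etoposide libraries over 67140. The depth of the etoposide libraries was 21450766 and 14244235 counts, and the 220 genes held 0.433% and 0.430% of them. The labels give bone as tissue and epithelial as cell type. In the etoposide libraries 15 marker genes were read, and each kind was divided. Of the mesenchymal genes, VIM, COL1A1, SPARC and FN1 had between 8907 and 74285 counts and COL1A2 had 5 and 2. Of the epithelial genes, KRT8 had 20129 and 12074, KRT18 4945 and 3048 and EPCAM 293 and 169, and CDH1 and KRT19 had at most 30. Of the osteoblast genes, ALPL had 215 and 131 and RUNX2 101 and 69, and SP7, BGLAP and IBSP had at most 8. The study calls the 2 libraries of a group technical replicates, so the p-values below measure the spread between such libraries. For Hi-C the study uses the same term for separately cultured cells. Whether the RNA-Seq libraries came from separate cultures is not given in the sources used here.

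For the comparison between groups, counts were scaled to the shared genes with TMM, so each difference is relative to the other genes of this list and not to the whole transcriptome. Of the 7 pseudogenes, MTND2P28, MTCO1P12 and MTATP6P1 passed the filter on low counts and were tested, and the other 4 did not pass it. The normalized counts of MTND2P28 were 3921 and 4488 in control, 3122 and 3903 with etoposide and 3763 and 4353 with adriamycin. Those of MTATP6P1 were 3194 and 3384 in control, 3677 and 3615 with etoposide and 4646 and 5157 with adriamycin. The libraries of MTATP6P1 did not overlap between any of the 3 groups, and adriamycin was highest. Over all tested genes, libraries did not overlap for 34.0% with etoposide above control and 33.0% with adriamycin above control. For adriamycin above etoposide the share was 37.2%. The share with all 3 groups apart was not counted.

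The normalized counts of MTCO1P12 were 480 and 449 in control, 405 and 416 with etoposide and 717 and 584 with adriamycin. Both adriamycin libraries lay above the other 4 here as well. The same held for tested genes outside the block, among them AGRN, GNB1 and INTS11. Taken singly, adriamycin lay above control without overlap for 33.0% of the tested genes and above etoposide for 37.2%. The share with both at once was not counted. For MTND2P28 both etoposide libraries lay below both control libraries, and the adriamycin libraries overlapped with each of the other groups. The sum over the 7 was 7965 ± 514 (SD, n = 2) in control, 7572 ± 516 with etoposide and 9616 ± 684 with adriamycin, so on this scale the mean with etoposide was below that in control, while as a share of the counts it was above. In bulk RNA, more counts per cell and more cells with these counts cannot be told apart.

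**Figure D2:**
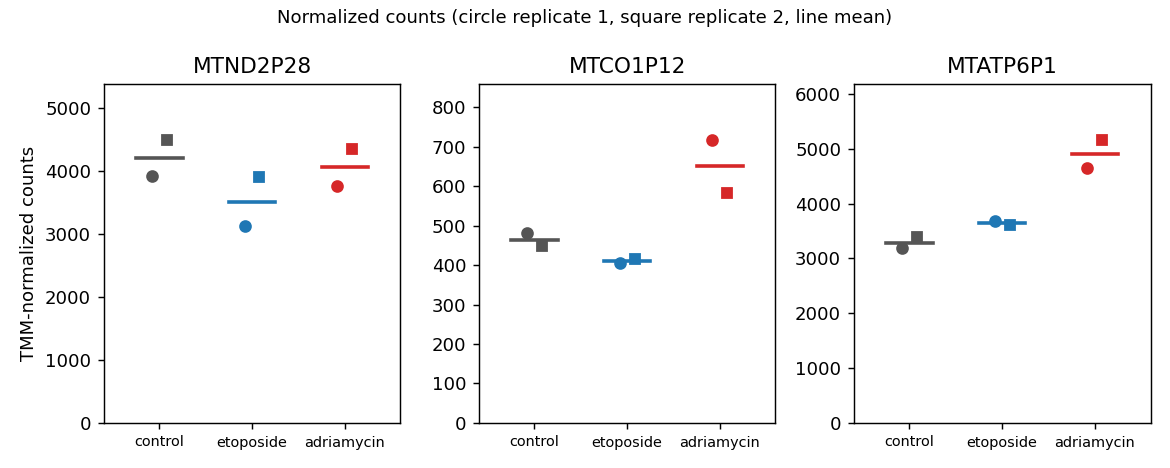
TMM-normalized counts (y axis, from 0) of the 3 tested pseudogenes by group (x axis), with a circle for replicate 1, a square for replicate 2 and a line at the mean. MTATP6P1 was at 4646 and 5157 with adriamycin against 3194 and 3384 in control, and MTCO1P12 at 717 and 584 against 480 and 449.

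Etoposide was first compared with control. The study's thresholds were an adjusted p below 0.01 together with an absolute log2 fold change above 1. Of the 3 tested pseudogenes 0 met them in edgeR or in DESeq2, while edgeR called 5.32% of the 94 tested genes in either direction. At an unadjusted p below 0.05 in edgeR, 1 of the 3 was lower and 0 higher, beside 24 lower and 16 higher of the 94. With edgeR's quasi-likelihood test, the log2 fold change of MTND2P28 was −0.26 (SE 0.090, 95% interval −0.44 to −0.082, adjusted p = 0.0181), which is a fold of 0.835. That of MTCO1P12 was −0.18 (SE 0.11, 95% interval −0.41 to 0.040, edgeR adjusted p = 0.196) and that of MTATP6P1 was 0.15 (SE 0.087, 95% interval −0.023 to 0.32, edgeR adjusted p = 0.175). The libraries of the groups did not overlap for any of the 3, as was the case for 34.0% of all tested genes with etoposide higher and 36.2% with etoposide lower. The value of MTND2P28 moved with the library left out, from −0.45 without etoposide replicate 2 to −0.17 without control replicate 2 and −0.11 without etoposide replicate 1. All 3 values moved up with upper-quartile scaling and with library size alone, and the median over all tested genes moved by 0.22 and 0.19. MTND2P28 was then at −0.037 (edgeR adjusted p = 0.794) and −0.067 (edgeR adjusted p = 0.608). MTCO1P12 turned positive, at 0.040 and 0.012. MTATP6P1 was at 0.37 (edgeR adjusted p = 0.00198) and 0.34 (edgeR adjusted p = 0.00130), both past an adjusted p of 0.01 and under the fold threshold.

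Adriamycin was then compared with control. The log2 fold change of MTATP6P1 was 0.58 (SE 0.087, 95% interval 0.40 to 0.75, edgeR adjusted p = 1.31e-08), a fold of 1.49, and that of MTCO1P12 was 0.49 (SE 0.11, 95% interval 0.27 to 0.71, edgeR adjusted p = 0.000133), a fold of 1.40. Both lay under the fold threshold, so 0 of the 3 tested pseudogenes were called, in edgeR or DESeq2, while edgeR called 8.51% of the 94 genes. Both were higher at an unadjusted p below 0.05 in edgeR, beside 21 higher and 30 lower of the 94, and MTND2P28 did not pass it. With the fold threshold dropped and adjusted p still below 0.01, MTATP6P1 and MTCO1P12 were higher, as were 19.1% of all tested genes. Their libraries did not overlap between the groups, as for 33.0% of the tested genes on the higher side. MTND2P28 was at −0.051 (SE 0.091, 95% interval −0.23 to 0.13, edgeR adjusted p = 0.669), and this sign turned under several settings. The median over all tested genes was −0.072 in this comparison and 0.027 for etoposide.

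MTATP6P1 passed an adjusted p of 0.01 in this comparison under 16 of 16 alternatives, with a log2 fold change between 0.36 and 0.77. MTCO1P12 passed it under 10 of 16. Its edgeR adjusted p was 0.0297 with library size alone, where its log2 fold change was 0.27. It was also above 0.01 when control replicate 2 (0.0199), etoposide replicate 1 (0.0327), etoposide replicate 2 (0.0134) or adriamycin replicate 1 (0.0353) was left out, and in a fit of only the 4 libraries compared (0.0243). The log2 fold change in these fits was 0.44, 0.51, 0.50, 0.39 and 0.51, against 0.49 with all libraries. The lowest of these, 0.39, was the fit without adriamycin replicate 1, which was the higher of the adriamycin pair for MTCO1P12, at 717 against 584 normalized counts.

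The third comparison was of adriamycin with etoposide. The log2 fold change was 0.67 for MTCO1P12 (SE 0.11, 95% interval 0.45 to 0.89, edgeR adjusted p = 1.47e-07), 0.43 for MTATP6P1 (SE 0.087, 95% interval 0.25 to 0.60, edgeR adjusted p = 1.03e-05) and 0.21 for MTND2P28 (SE 0.091, 95% interval 0.030 to 0.39, edgeR adjusted p = 0.0474). With the fold threshold 0 of the 3 were called in edgeR or DESeq2, while edgeR called 12.8% of the tested genes, and all 3 were higher at an unadjusted p below 0.05 in edgeR, beside 26 higher and 27 lower of the 94. MTCO1P12 and MTATP6P1 were higher on adjusted p below 0.01 alone, as were 21.3% of the tested genes. Their libraries did not overlap between both drugs, as for 37.2% of the tested genes on the higher side. Both passed under 14 of 16 alternatives. Without etoposide replicate 1 the edgeR adjusted p was 0.0290 for MTCO1P12 and 0.0123 for MTATP6P1, at log2 fold changes of 0.68 and 0.46. With library size alone in place of TMM, MTCO1P12 was at 0.26 (edgeR adjusted p = 0.0370), MTATP6P1 at 0.017 (edgeR adjusted p = 0.895) and MTND2P28 at −0.20, and this scaling moved the median of all tested genes by −0.41. The 3 comparisons share their libraries and are not independent of each other.

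**Figure D3:**
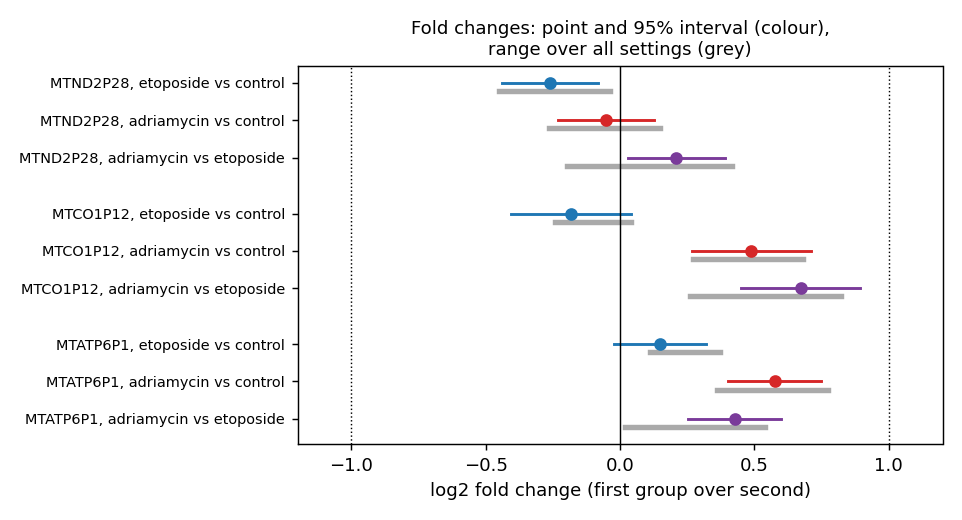
Log2 fold changes (x axis) of the 3 tested pseudogenes in the 3 comparisons (y axis), with a coloured point for the edgeR estimate, a coloured line for its 95% interval and a grey line for the range over all settings tried. Dotted lines mark the fold threshold, which no value reached, and MTATP6P1 under adriamycin against control stayed between 0.36 and 0.77.

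A ratio of counts of pseudogenes within a library needs no scaling. The ratio of MTND2P28 to MTATP6P1 was 1.23 and 1.33 in control, 0.849 and 1.08 with etoposide and 0.810 and 0.844 with adriamycin. Control was above 1 in both libraries, adriamycin below 1 in both, and the groups did not overlap in any of the 3 comparisons. With 2 libraries against 2 the exact two-sided permutation test gave p = 0.333 in each, the smallest value it allows, so this test could not reach 0.05 here. The ratio of MTND2P28 to MTCO1P12 was 8.16 and 10.0 in control, 7.71 and 9.39 with etoposide and 5.25 and 7.45 with adriamycin. The ratio of MTATP6P1 to MTCO1P12 was 6.65 and 7.54 in control, 9.08 and 8.70 with etoposide and 6.48 and 8.83 with adriamycin, and control and adriamycin overlapped.

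Seen as shares of the counts of the 7, MTND2P28 made up 51.6% and 53.9% in control, 43.3% and 49.2% with etoposide and 41.2% and 43.1% with adriamycin. MTATP6P1 made up 42.0% and 40.6% in control, 51.0% and 45.5% with etoposide and 50.9% and 51.1% with adriamycin. MTND2P28 had the larger share in control and MTATP6P1 in adriamycin, and the etoposide libraries were divided.

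Other pseudogenes of the shared list give the class as a background. There were 35, of which 6 had 0 counts in all libraries and 10 were tested, and the highest count of any in a library was 230. Of the 10, 0 were called between etoposide and control, WASH7P was called higher with adriamycin than in control (log2 fold change 1.06, SE 0.30, edgeR adjusted p = 0.00176), and ENSG00000269896 was called lower with adriamycin than with etoposide (log2 fold change −1.62, SE 0.42, edgeR adjusted p = 0.000474). The median log2 fold change of the 10 was 0.24, −0.37 and −0.43 in the comparisons of etoposide with control, adriamycin with control and adriamycin with etoposide. Of the nearest tested genes, ENSG00000230021, which spans the block, was at −0.18 (SE 0.52, edgeR adjusted p = 0.787) between adriamycin and control, and ENSG00000228327 at chr1:764723-774280 was at −0.53 (SE 0.22, edgeR adjusted p = 0.0387), and neither was called in any comparison.

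The tested genes outside the block whose log2 normalized counts followed the sum of the 7 most closely over the 6 libraries were INTS11, which encodes the catalytic subunit of the Integrator complex, with Pearson's r of 0.901, AGRN, which encodes the basement membrane protein agrin, with 0.894, and GNB1, which encodes a G protein beta subunit, with 0.853. The 6 libraries form 3 groups and share 1 scaling, and r is given as a description.

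The parent genes were analysed in the etoposide libraries, where the whole gene list was used. MT-CO1 had 322010 and 221775 counts, MT-CO3 127021 and 80457, MT-CO2 106368 and 66654, MT-ATP6 73719 and 49639, MT-ND2 68842 and 47760, MT-ND1 53797 and 37331 and MT-ATP8 1249 and 985. The 37 genes of the mitochondrial genome held 5.48% and 5.57% of all counts and the 7 pseudogenes 0.0496% and 0.0530%. Parent counts of the other 4 libraries were not analysed here, so whether parent and pseudogene counts moved together between groups was not tested.

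MTND2P28 had 6.70% and 7.77% of the counts of MT-ND2, a mean of 7.23% ± 0.76 (SD, n = 2). MTATP6P1 had 7.37% and 6.92% of those of MT-ATP6, a mean of 7.15% ± 0.32, so these pseudogenes stood in nearly the same proportion to their parents. MTCO1P12 had 0.186% and 0.178% of the counts of MT-CO1, the most abundant of the 7 parents. MTND1P23, MTCO2P12 and MTCO3P12 had at most 0.00372% of theirs. MT-ATP8 exceeded MTATP8P1 by at least 416-fold and 328-fold in replicates 1 and 2, where 0 counts were set to a limit of 3 per library. MT-ATP8 is shorter than the other parents and overlaps MT-ATP6. Summed over the 7, the pseudogenes had 1.41% and 1.50% of the counts of their parents. The parent counts did not order the pseudogene counts: MT-CO3 and MT-CO2 had more counts than MT-ATP6 and MT-ND2, and MTCO3P12 and MTCO2P12 had at most 2 in these libraries.

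**Figure D4:**
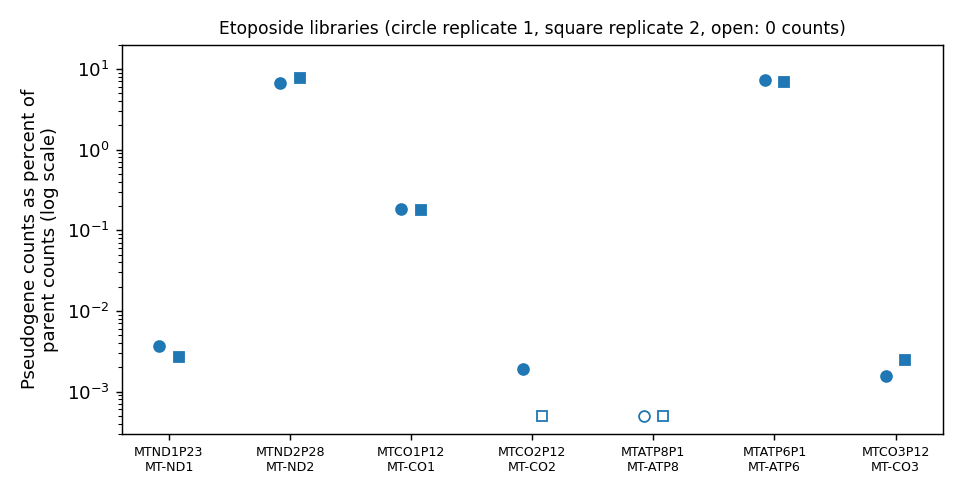
Counts of each pseudogene as percent of the counts of its mitochondrial parent gene (y axis, logarithmic) in the 2 etoposide libraries (circle, replicate 1 and square, replicate 2), with open symbols, placed at the foot of the axis, for 0 counts. MTND2P28 and MTATP6P1 lie between 6.70% and 7.77%, MTCO1P12 at 0.186% and 0.178%, and the others at or under 0.00372%.

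Per length, MTATP6P1 was at 372 and 354 RPKM in the etoposide libraries, MTND2P28 at 206 and 249 and MTCO1P12 at 18.1 and 18.0, and the other 4 were at or under 0.257. RPKM is here the count scaled to the length of the annotated gene and to the library's total count. For the nuclear genes given further below, the length is that of all annotated exons together. The order of the upper 3 held in both libraries, while the lower 4, with between 0 and 2 counts, could not be separated at this depth. In the whole list, 610 and 662 genes had more counts than MTATP6P1, 784 and 587 more than MTND2P28 and 6863 and 6971 more than MTCO1P12, of 30655 and 29805 genes with a count.

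Among the annotated pseudogenes of mitochondrial genes that were found by their symbol, the block stood apart. A symbol was available for 60357 of the 67140 genes, and copies without one or named otherwise were not included. GENCODE lists 404 by symbol, and the 7 held 10648 of their counts (97.2%, Wilson 95% interval 96.9 to 97.5) in etoposide replicate 1 and 7544 (96.0%, 95.5 to 96.4) in replicate 2. The other 397 held 307 and 317, and 320 of them had 0 in both libraries. The highest outside the block was MTND4P12 on chromosome 5, a copy of MT-ND4 with 95.8% identity, with 102 counts in each library. It was followed by MTCO1P28 with 18 and 36, MTND1P8 with 18 and 21, MTCYBP13 with 10 and 11 and MTND5P11 with 10 and 11. These 5 were the only ones outside the block with at least 10 counts in both libraries.

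The 7 also had the highest identity of the class. The median identity to the parent over the aligned part was 75.5% for the other 397, whose highest value was 96% in MTCO1P40 with 2 and 0 counts, against 97.6% to 99.1% in the 7. None of the other pseudogenes of at least 150 bases had a window of that length found without a difference on the mitochondrial genome. High identity did not go with high counts in each case, as MTND1P23 at 99.1% and MTCO1P40 show.

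**Figure D5:**
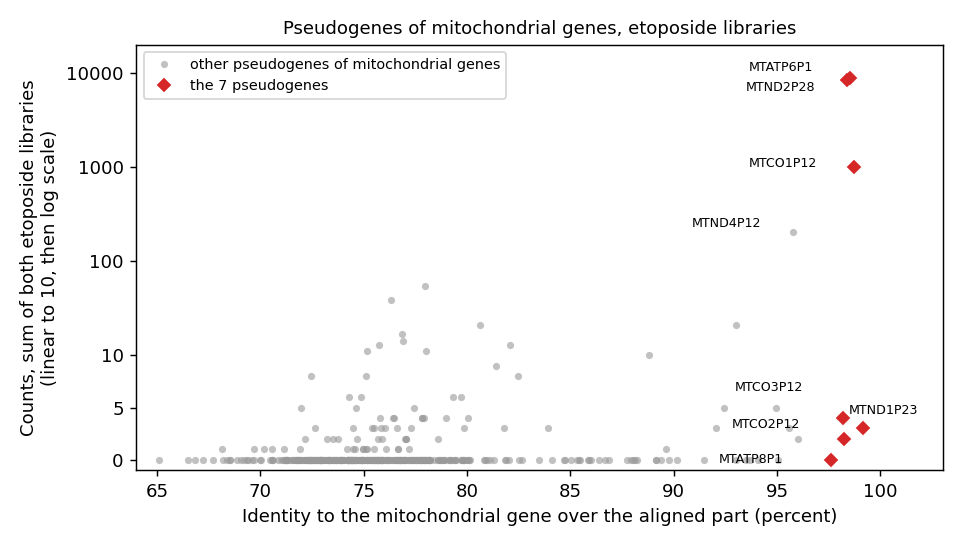
Counts summed over the 2 etoposide libraries (y axis, linear up to 10 and logarithmic above) against identity to the mitochondrial gene over the aligned part (x axis, percent) for 404 pseudogenes of mitochondrial genes, with red diamonds for the 7 of the block and grey points for the other 397. MTATP6P1, MTND2P28 and MTCO1P12 lie above all grey points, the highest of which is MTND4P12 with 204, and the other 4 red diamonds lie between 0 and 4.

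The remaining genes of the mitochondrial genome give the scale of mitochondrial counts in the etoposide libraries. As the RNA was poly(A)-selected, counts of messenger, ribosomal and transfer RNA genes are not amounts that can be compared between these kinds. The 13 protein-coding genes ranged from 1249 and 985 counts in MT-ATP8 to 322010 and 221775 in MT-CO1. The ribosomal RNA genes MT-RNR1 and MT-RNR2 had 10882 and 67282 counts in replicate 1 and 6858 and 45776 in replicate 2. The 22 transfer RNA genes had a median of 37.5 and 30 counts. The nuclear genes that make and process mitochondrial RNA were read in the same libraries from a list of 19, of which 0 were among the 220 shared genes, so no group comparison was made. They ranged from 0.364 RPKM for PRORP, a nuclease that cuts transfer RNAs out of the mitochondrial transcript, to 37.8 RPKM for TFAM, which packages mitochondrial DNA and starts its transcription. POLRMT, the mitochondrial RNA polymerase, was at 22.4 RPKM. MTATP6P1 and MTND2P28, at 354 to 372 and 206 to 249 RPKM, were above each of the 19 on this scale. The scale depends on the length used, which for the 19 is that of all annotated exons. LRPPRC, with 34689 exon bases, was at 7.96 RPKM. In counts it had 6008 and 3875, more than MTATP6P1 with 5432 and 3436.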

How the data were processed

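RNA-Seq libraries of U2OS cells were grouped by treatment from the labels. Reads were aligned by the authors to GRCh38 with HISAT2 2.1.0 and counted per Ensembl gene with featureCounts of Subread 2.0.0. The deposited values are raw counts, whole numbers without normalization. Options for strand and for reads that map to several places are not given in the sources used here. The incomplete last line of 4 files was dropped. Of the 220 genes shared by all files, 94 passed edgeR's default filter and entered the quasi-likelihood test of edgeR 4.0.16 under R 4.3.3, with TMM factors, 6 libraries in 1 fit, and p-values adjusted over these 94 by Benjamini-Hochberg. No replicate block was used. The biological coefficient of variation was 7.51%. Each library's counts were normalized by its effective size, set against the geometric mean size. Calls needed adjusted p below 0.01 and an absolute log2 fold change above 1. Fits were tested on simulated data whose changes were set beyond the fold threshold. Recovery of smaller changes, such as those of the pseudogenes here, was not tested. Gene models are from GENCODE release 44. Pseudogenes were aligned to the mitochondrial genome of GRCh38 with Biopython 1.88 (match 2, mismatch −3, gap opening −8, gap extension −1). Tables were made with Python 3.11.15. The named genes are the 7 pseudogenes, their parents, the 3 genes most correlated with their sum, the nearest tested genes and the 5 other mitochondrial pseudogenes with the most counts. WASH7P and ENSG00000269896 were named as the only calls among other pseudogenes, MTCO1P40 for its identity, and the markers of the label check were chosen after values were seen. Members and lists were chosen with earlier results of these data known. Alternatives were other scalings, DESeq2 1.42.0, other filters and thresholds, robust dispersion, fits of 4 libraries, a replicate block and leaving out each library. Whether equal replicate numbers pair libraries was checked over 75 genes (correlations of deviations −0.070, 0.036 and −0.010). These values show no pairing over the genes together and cannot exclude it for single genes.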

Additional observations from a re-analysis of the deposited data

How the results depend on the processing

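No alternative called a pseudogene with the fold threshold in any of the 3 comparisons, and the counts called higher or lower were 0 to 0 when each library was left out. Without a fold threshold, 2 of the 3 tested pseudogenes were higher with adriamycin than in control, as were 19.1% of all tested genes. Against etoposide 2 of the 3 were higher with adriamycin, as were 21.3% of all tested genes. Of 144 log2 fold changes under alternatives, 136 kept their direction and their side of the called threshold and 8 turned their sign, and the largest was 0.82. For MTND2P28 under adriamycin against control the turned values were 0.051 with DESeq2 size factors, 0.051 with the DESeq2 Wald test, 0.15 with upper-quartile scaling, 0.047 without control replicate 2 and 0.11 without adriamycin replicate 1, in a range from −0.14 to 0.11 over the libraries left out. With adriamycin against etoposide it was −0.20 with library size alone. MTCO1P12 under etoposide against control was 0.040 with upper-quartile scaling and 0.012 with library size alone. Where a scaling turned a sign, the median of all tested genes moved the same way. It moved by 0.19 with upper-quartile scaling and 0.092 with DESeq2 size factors for adriamycin against control, by −0.41 with library size alone for adriamycin against etoposide, and by 0.22 and 0.19 with both scalings for etoposide against control. The cause of the turns without a library was not tested.

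The share of the shared-gene counts held by the 7, with means of 10.9%, 11.9% and 11.4% in control, etoposide and adriamycin, was 14.4%, 15.3% and 16.0% without AGRN, the gene with the most counts. Relative to the counts of the other shared genes it was 12.3%, 13.5% and 12.9%. Per kilobase, the pseudogenes had 1.69% of the counts of their parents in place of 1.45%, with 0.00822% for MTND1P23 and 0.00291% for MTCO3P12. Windows without a difference were 44.1% at 50 bases and 19.5% at 100 bases against 8.73% at 150.

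The correlations of deviations between equally numbered libraries were near 0 over 75 genes. They cannot exclude pairing for single genes. Normalized MTND2P28 was higher in replicate 2 in each group, while MTCO1P12 and MTATP6P1 were divided. With the replicate block, 0 pseudogenes were called in each comparison, and MTND2P28 under etoposide against control was −0.27 with an edgeR adjusted p of 0.00676, which passes 0.01 without the fold threshold.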
